A study of Mus musculus with 2 samples.

Results

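Wnt antagonists and Wnt target genes were examined on the arrays of cultured mouse ovaries through 10 genes. These were Sfrp1, Sfrp2, Sfrp4, Sfrp5, Frzb, Wif1, Dkk2, Dkk3, Axin2 and Lef1. They were chosen by the roles of their products, with earlier results of these data known. All 10 were represented among the 20658 genes that could be named on the array, by 11 probes in all, of which Axin2 had 2 and each other gene had 1, and every one of these probes was printed as 1 spot. Ovaries of female mice at 2 weeks of age were cut lengthwise into symmetrical pieces, which the study did to limit error from differences between ovaries. Whether the pieces of 1 ovary went to both groups is not stated. The pieces were kept in culture for 3 days. The agonist group received agonists of the tachykinin (TK) receptors TACR1, TACR2 and TACR3 ([Sar9, Met(O2)11]-SP, GR-64349 and a succinylated analogue of a substance P fragment). The antagonist group received antagonists of these receptors (L-703,606, GR-94800 and SB218795). Each compound was used at 1 μM. The study's text speaks of all the antagonists for this comparison, whereas its methods join the compounds by "or", and whether the 3 agonists, or the 3 antagonists, were given together is not stated, so each ratio compares one class of ligand with the other. Each group was measured on 1 single-colour array, both on 1 slide. The strain of these mice and the number of ovary pieces behind each RNA are not given in the sources used here, and untreated ovaries were not analysed here. Without replicates no test was made, and each difference below compares 2 RNA preparations with only the error of the spots as a measure of precision.

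Wnt proteins are secreted lipid-modified signals that bind Frizzled receptors together with the coreceptors LRP5 and LRP6, which stabilises β-catenin and lets it activate genes together with TCF and LEF factors. Secreted antagonists act outside the cell. SFRP proteins, FRZB and WIF1 bind Wnt proteins, whereas most DKK proteins bind the coreceptors. In the ovary, WNT4 and R-spondin 1 are known for female differentiation of the gonad, and β-catenin activity is followed through targets such as Axin2 and Lef1.

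To show the DNA at the genes described here, the promoter windows were read from RefSeq on build GRCm38.p6, from 250 bases before to 50 bases after a start site and 5′ to 3′ on the strand of the gene. Windows were listed for 7 of the 10 genes, 10 windows in all. They were searched on both strands for CTTTGA, the core to which TCF and LEF factors bind, whose reverse complement is TCAAAG. No other motif was searched. Of the 10 windows, 2 held a match, and 16.0% of all 32851 promoter windows of this length did. Sfrp2 is shown because it had the largest ratio between the arrays, and Frzb and Lef1 because their windows held a match, printed in capitals. The Frzb window held 1 match and the Lef1 window, at the last of its 4 listed starts, held 2. The other windows, those of Sfrp2 and Axin2 among them, held none. A match or its absence is a description of these letters and not of binding.
Sfrp2, chr3:83766071-83766370, plus strand: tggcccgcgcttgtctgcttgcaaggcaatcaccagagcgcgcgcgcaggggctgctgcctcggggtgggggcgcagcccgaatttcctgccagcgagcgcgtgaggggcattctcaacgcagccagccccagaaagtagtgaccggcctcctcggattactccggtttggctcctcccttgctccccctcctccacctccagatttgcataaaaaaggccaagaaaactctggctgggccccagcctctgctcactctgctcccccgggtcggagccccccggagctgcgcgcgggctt
Frzb, chr2:80447347-80447646, minus strand: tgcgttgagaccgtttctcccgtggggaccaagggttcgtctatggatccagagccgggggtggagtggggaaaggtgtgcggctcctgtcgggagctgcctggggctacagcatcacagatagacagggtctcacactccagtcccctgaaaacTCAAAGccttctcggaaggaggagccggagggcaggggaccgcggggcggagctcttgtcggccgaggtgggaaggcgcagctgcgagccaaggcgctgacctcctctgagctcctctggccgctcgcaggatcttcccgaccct
Lef1, chr3:131156044-131156343, plus strand: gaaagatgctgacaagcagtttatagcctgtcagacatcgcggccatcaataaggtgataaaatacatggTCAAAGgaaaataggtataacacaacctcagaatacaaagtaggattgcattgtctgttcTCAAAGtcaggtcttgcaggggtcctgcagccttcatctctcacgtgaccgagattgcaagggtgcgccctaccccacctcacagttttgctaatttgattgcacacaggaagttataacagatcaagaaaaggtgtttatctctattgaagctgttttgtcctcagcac

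The secreted antagonists Sfrp2 and Sfrp4 were at least 2-fold brighter with TKR agonists than with TKR antagonists, and Sfrp1 was brighter by less. The antagonists Frzb, Dkk3 and Sfrp5 differed by at most 1.37-fold in either direction, and the target genes Axin2 and Lef1 by at most 1.27-fold. Of the 10 genes, 8 were well above background on both arrays by the criterion of the image analysis software, Dkk2 on the agonist array only, and Wif1 on neither. Log2 ratios are agonists minus antagonists, after the log2 signal of each array was reduced by its 75th percentile. Among the 8 genes the median log2 ratio was 0.34, against -0.10 over all 15258 genes well above background on both arrays. In all, 2 of the 8 genes were at least 2-fold higher with the agonists, against 4.01% of all genes, and 0 were at least 2-fold lower, against 0.577%. The ratios of 7 of the 8 lay above the median of all genes, the exception being Sfrp5. Because the 10 genes were chosen with earlier results of these data known, these values only describe them. With whole tissue, fewer cells of a type and less RNA per cell cannot be told apart.

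**Figure D1:**
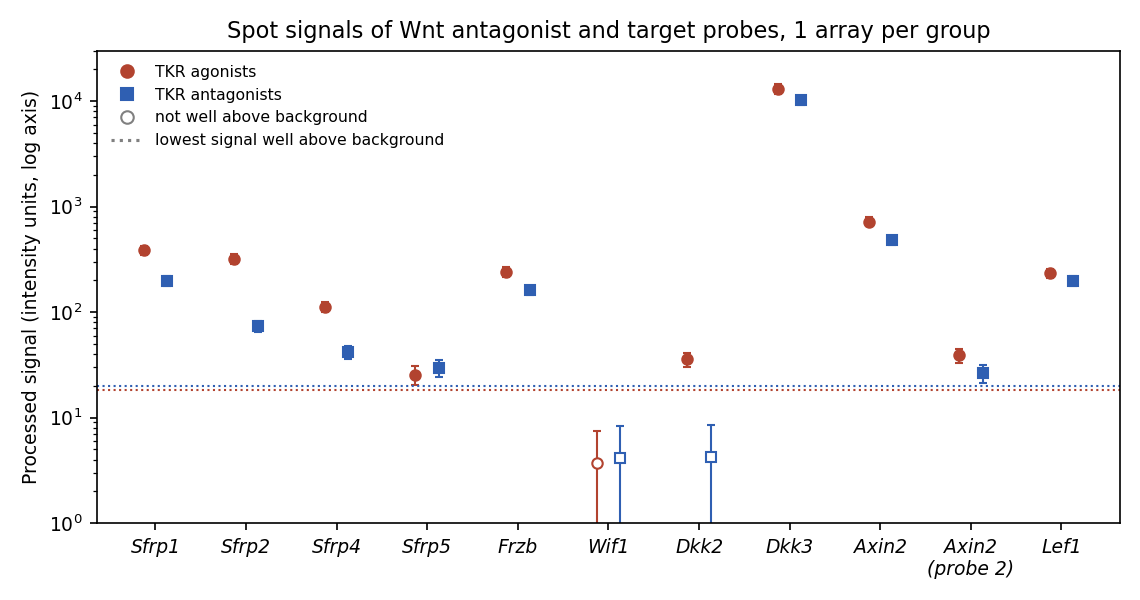
Processed signal of each probe (intensity units, log axis) with TKR agonists (circles) and TKR antagonists (squares), 1 spot per array, with the software's error estimate as bars. Open symbols were not well above background, bars longer than the signal run off the axis, and dotted lines mark the lowest signal well above background on each array. Agonist and antagonist symbols lie farthest apart for Sfrp2 among genes with filled symbols on both arrays, whereas those of Lef1 lie close together. Levels of different probes are not comparable.

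The secreted Frizzled-related proteins carry a domain like that of the Frizzled receptors, with which they can bind Wnt proteins. The Sfrp2 spot (NM_009144) gave a processed signal of 320 ± 32.2 intensity units with the agonists and 73.8 ± 8.40 with the antagonists, where ± is the error estimate of the software for 1 spot. These signals were far apart compared with their errors, and the log2 ratio was 1.87 ± 0.22, or 3.67-fold. Of the 15258 genes measured on both arrays, 132 (0.865%) had a ratio at least as high. The Sfrp4 spot (NM_016687) gave 112 ± 11.8 with the agonists and 41.7 ± 5.77 with the antagonists. The log2 ratio was 1.19 ± 0.25, or 2.28-fold. Sfrp4, known from corpora lutea of the adult ovary, was again brighter by several times the error, with 440 genes (2.88%) at least as high. Ratios of dim spots scatter more widely, and in the signal range of Sfrp2 and Sfrp4, from 60 to 200 intensity units as a mean of both arrays, 8% of 2463 genes were at least 2-fold higher. With the normexp background correction, which adds an offset of 50 units, the log2 ratio of Sfrp2 was 1.09 and that of Sfrp4 was 0.37.

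Sfrp1 (NM_013834), an antagonist that can also bind Frizzled receptors, gave 385 ± 38.7 with the agonists and 198 ± 20.2 with the antagonists. Its log2 ratio was 0.72 ± 0.21, or 1.65-fold, which is larger than the error of the spots and short of 2-fold, and 6.95% of genes were at least as high. Sfrp5 (NM_018780) gave 25.6 ± 5.00 with the agonists and 29.6 ± 5.35 with the antagonists, both just above the lowest signals called well above background (18.1 and 19.9 intensity units). The Sfrp5 signals overlapped within their errors, and its log2 ratio of -0.46 ± 0.38 was little larger than the error. Frzb (NM_011356), also called Sfrp3 and known as a Wnt antagonist of cartilage, gave 241 ± 24.4 with the agonists and 162 ± 16.7 with the antagonists, and had a log2 ratio of 0.33 ± 0.21. Thus the 5 genes of this structural family spanned log2 ratios from -0.46 to 1.87 and did not differ alike. The difference between the ratios of Sfrp2 and Sfrp5 has no replicate behind it and was not tested.

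**Figure D2:**
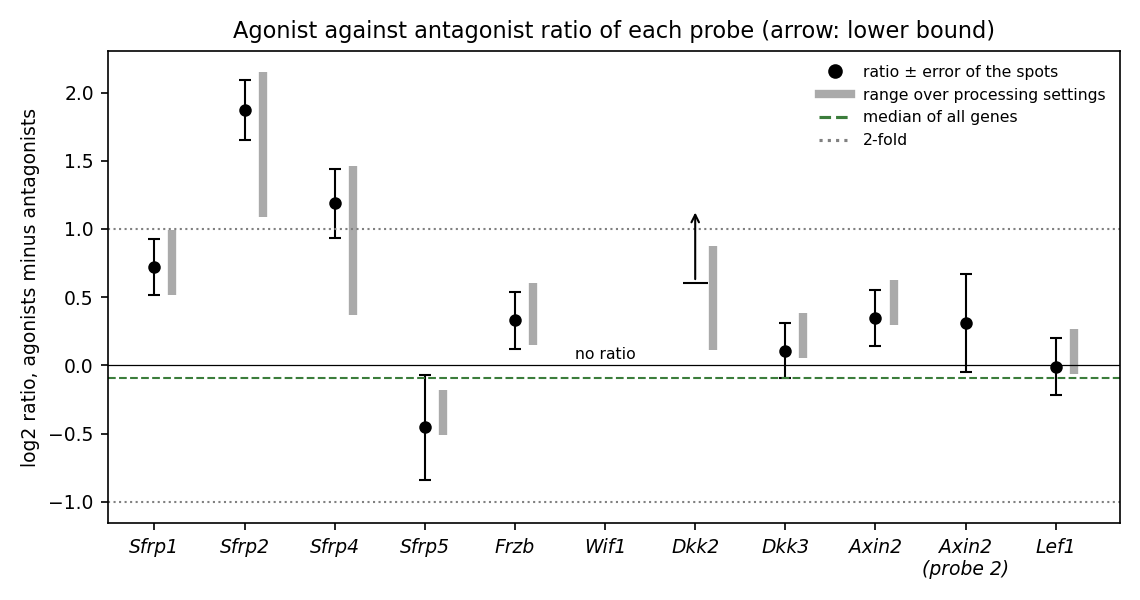
Log2 ratio of each probe, agonists minus antagonists, with the combined error of its spots (black) and the range over the processing settings (grey). The dashed line is the median of all genes at -0.10 and the dotted lines mark 2-fold; the arrow is the lower bound of Dkk2. Sfrp2 stayed above 1 in every setting that gave it a value, whereas Sfrp4 reached down to 0.37 with normexp.

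Wif1 and the Dickkopf genes gave 3 different pictures. Wif1 (NM_011915), a secreted protein that binds Wnt proteins directly, was not well above background on either array, giving 3.75 ± 3.76 intensity units for the agonists against 4.14 ± 4.15 for the antagonists, so no ratio is given. Dkk2 (NM_020265), which binds the coreceptor LRP6, gave 35.7 ± 5.34 with the agonists and was well above background there. On the antagonist array its spot gave 4.24 ± 4.25 and was not well above background. Set against the lowest signal well above background on the antagonist array, the agonist signal of Dkk2 was at least 1.52-fold higher. It is the only gene of the 10 that was detected on 1 array alone, as were 5.19% of the 16278 genes detected on at least 1 array, on the agonist side. Dkk3 (NM_015814), a divergent Dickkopf protein that is not a typical LRP6 ligand, gave 13074 ± 1307 with the agonists and 10259 ± 1026 with the antagonists. Its log2 ratio of 0.11 ± 0.20 was within the error of the spots. The size of an error at such a signal is an estimate of the software, and among probes printed at 10 spots the median SD of the log2 ratio was 0.058 above 1000 intensity units and 0.29 between 20 and 60.

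Axin2 and Lef1 are direct targets of β-catenin signalling, AXIN2 being a scaffold of the complex that degrades β-catenin and LEF1 a DNA-binding partner of it. The brighter Axin2 probe (NM_015732) gave 722 ± 72.4 with the agonists and 480 ± 48.2 with the antagonists, and had a log2 ratio of 0.35 ± 0.20. The dimmer probe for the same transcript gave 38.9 ± 5.85 and 26.5 ± 5.31, a log2 ratio of 0.31 ± 0.36. Both probes leaned the same way and differed from each other by less than their errors. Lef1 (NM_010703) gave 232 ± 23.6 with the agonists and 198 ± 20.2 with the antagonists, and after scaling its log2 ratio was -0.01 ± 0.21. The signals of Lef1 thus overlapped within their errors, and the sign of its ratio changed with the scaling, up to 0.27 with spike-in controls.

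**Figure D3:**
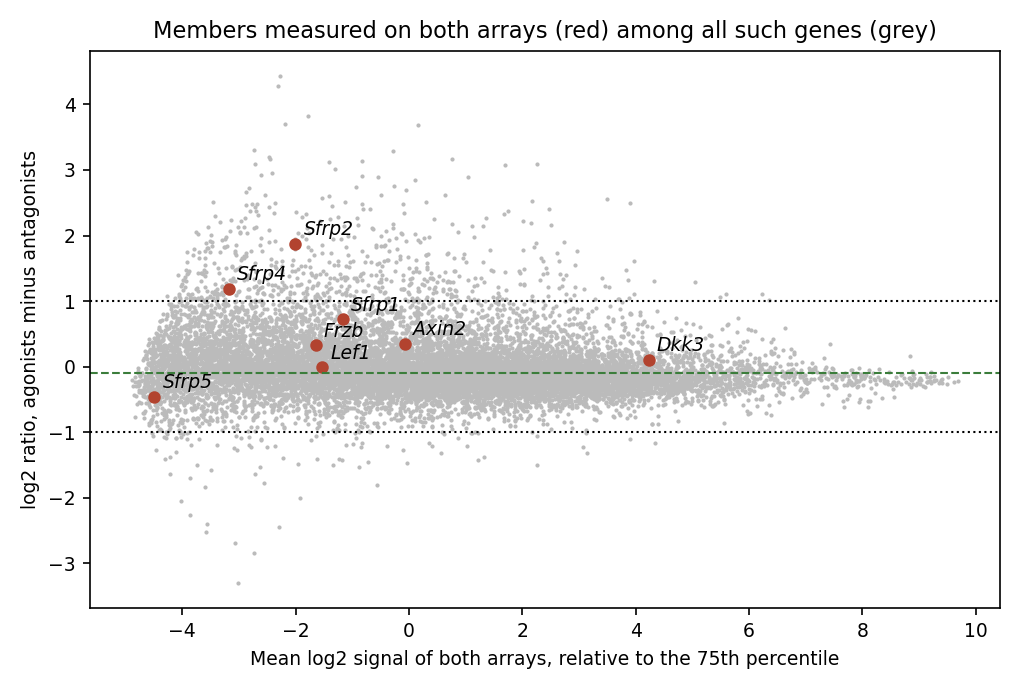
Log2 ratio, agonists minus antagonists, against the mean log2 signal of both arrays relative to the 75th percentile, for the 15258 genes well above background on both arrays (grey) and the 8 of the 10 genes among them (red). The dashed line is the median of all genes and the dotted lines mark 2-fold. Sfrp2 and Sfrp4 lie above the upper 2-fold line in the dimmer part of the range, where the grey points scatter most.

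The other genes of the pathway were grouped by role, and their medians lay between -0.23 and 0.16. Further Wnt targets had a median log2 ratio of 0.16, with 14 of 16 genes measured on both arrays and 0 at least 2-fold higher or lower by the representing probe. Ccn4, at 0.97, lay just under 2-fold and past it in several other scalings, and for Tcf7, with 0.25, a dimmer probe gave -1.10 (both genes named after their values were seen). Among them, Notum, a secreted enzyme that inactivates Wnt proteins, had 0.10, Nkd1, an intracellular feedback inhibitor, had 0.06, and the receptor gene Tnfrsf19 had 0.43. Ccn5, named here after its values were seen, was well above background on the agonist array only and at least 3.27-fold higher there. Wnt ligands and the genes for their secretion had a median of 0.11 over 12 of 21 genes, again with 0 past 2-fold in either direction. Wnt4 had 0.09, Wnt6 had 0.60, and Wls, the carrier that brings Wnt proteins to the cell surface, had -0.16. Wnt10b, an exception to the rule by which genes were named, was detected with the agonists alone and was at least 1.52-fold higher.

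Among R-spondins and Wnt receptors the median was -0.03 over 18 of 21 genes, and 2 genes were at least 2-fold higher with the agonists while 0 were at least 2-fold lower. These were Rspo1, which amplifies Wnt signals by protecting the receptors, with 1.08, and Fzd1, a Frizzled receptor, with 1.01. Fzd1 fell short of 2-fold, at 0.95 and 0.96, when the arrays were scaled on the median of all probes and after normexp, whereas Rspo1 stayed past it in each setting. By contrast, the coreceptor gene Lrp5 had -0.06. Intracellular components had a median of -0.23 over all 20 genes, with 0 past 2-fold, and 18 of them lay below 0 in this scaling. The values were -0.10 for Ctnnb1, which encodes β-catenin, -0.28 for Dvl3 and -0.38 for Pygo2. The sign of this median depended on the scaling: it was 0.015 on unscaled signals and 0.050 when the arrays were scaled on spike-in controls, where the median of all genes was 0.15 and 0.18. The other Wnt antagonists had a median of -0.06 over 7 of the 15 genes that had a probe, Tiki1 having none matched by accession. Of these 7, only Dkkl1, a gene related to the Dickkopf family, was at least 2-fold higher, at 1.35 (0.99 after normexp), and 0 were at least 2-fold lower. Nkd2 had 0.47, Igfbp4 had 0.50 and Ctnnbip1, an inhibitor of β-catenin, had -0.06. Dkk1, Dkk4, Sost, Sostdc1, Cer1, Kremen2, Draxin and Shisa3 were not well above background on both arrays, and of these Dkk4 alone was so on the agonist array.

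**Figure D4:**
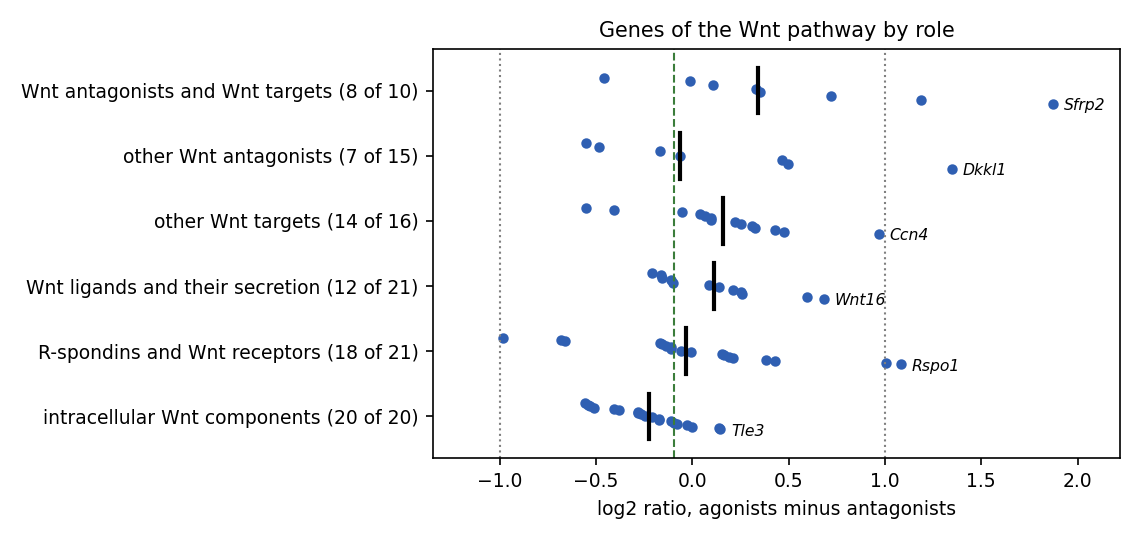
Log2 ratio, agonists minus antagonists, of each gene of the Wnt pathway by role. Points are genes well above background on both arrays, with their number of those with a probe in brackets, black bars are medians, the dashed line is the median of all genes and dotted lines mark 2-fold. The gene with the highest ratio of each role is named; Sfrp2 lies farthest to the right, and the intracellular components lie closest together.

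Marker genes of the cell types in such a piece were measured in the same way, each given as those measured on both arrays of those with a probe (Muc16, Cd68 and Insl3 had none matched by accession), because Sfrp and Dkk genes are also genes of stromal and other mesenchymal cells. The labelled tissue was seen in its defining markers, with the oocyte genes Gdf9 and Zp3 and the granulosa cell gene Foxl2 well above background on both arrays. Stroma and fibroblast markers had a median log2 ratio of 0.38, 8 of 8 measured, from -0.30 for Lum to 0.77 for Tcf21. Their summed signal was 415 times the 75th percentile with the agonists and 348 times with the antagonists. Such sums, here and below, add probes whose levels are not comparable. The brightest probes weigh most in them, here those of Dcn and Col1a2, and among the oocyte markers that of Gdf9. Markers of the surface epithelium had a median of 1.03 over 7 of 7 genes, 4 of them at least 2-fold higher, from 0.62 for Upk3b to 1.40 for Krt19, and summed to 37.3 and 17.5 times the percentile. Markers of smooth muscle (0.71, 4 of 5, summed 37.8 and 23.2), endothelium (0.68, 6 of 7, 68.6 and 58.0) and macrophages (0.76, 5 of 5, 11.4 and 9.06) were higher with the agonists as well in their medians. They ran from 0.60 for Acta2 to 0.99 for Myh11 in smooth muscle, from -0.27 for Kdr to 1.07 for Cldn5 in endothelium and from 0.15 for Csf1r to 1.82 for Mrc1 in macrophages. The signs of the 2 lowest depended on the probe, since another probe gave 0.38 for Kdr and another -0.09 for Csf1r. These ranges leave out Tek of endothelium and Des of smooth muscle, exceptions to the naming rule that were detected with the agonists alone. By their lower bounds Tek was at least 4.10-fold and Des at least 2.63-fold higher, past Cldn5 and Myh11. Granulosa cell markers had a median of -0.47 over 8 of 8 genes, with sums of 100.1 and 131, theca cell markers -0.10 over 4 of 5, with 85.1 and 84.1, and oocyte markers 0.17 over 8 of 8, with 211 and 220.2. The lowest and highest were Fshr at -0.73 and Cyp19a1 at 0.37 for granulosa cells, Cyp17a1 at -0.41 and Cyp11a1 at 0.79 for theca cells, and Zp3 at -0.13 and Figla at 0.59 for oocytes. Of these follicle lists, only that of oocytes had a median above 0 in this scaling. Oviduct epithelium had -0.08 over 4 of 5, from -0.55 for Ovgp1 to 1.07 for Epcam, with sums of 0.773 and 0.671. Of the adipocyte markers 2 of 5 were measured on both arrays, with Fabp4 at 3.82 and Plin1 at 0.59, a median of 2.20 and sums of 1.25 and 0.203. That median, the midpoint of 2 genes, fell to 0.53 when dim probes were kept. Cidec was well above background on the agonist array only, at 20.4 intensity units against 11.9. The defining markers Adipoq and Lep, and the theca cell marker Lhcgr, were not well above background on either array. The part of these cell types in the ratios of Sfrp2, Sfrp4, Sfrp1 and Dkk2 was not tested.

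**Figure D5:**
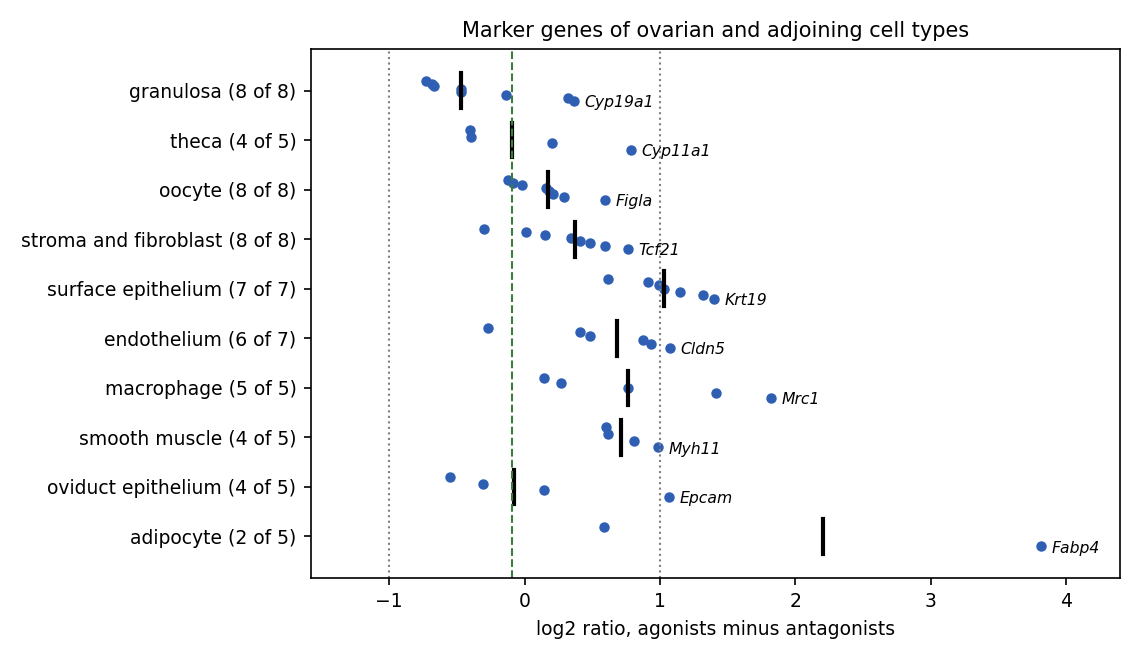
Log2 ratio, agonists minus antagonists, of marker genes by cell type. Points are genes well above background on both arrays, with their number of those with a probe in brackets, black bars are medians, the dashed line is the median of all genes, dotted lines mark 2-fold, and the gene with the highest ratio is named. Granulosa cell markers lie mostly left of the dashed line, and the markers of surface epithelium, smooth muscle and macrophages lie right of it.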

How the data were processed

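Total RNA of the cultured ovary pieces was labelled with Cy3 and hybridised to Agilent 8 x 60K mouse arrays. The authors deposited intensity values from Agilent Feature Extraction 10.10.1.1, after its background subtraction and without scaling between arrays, and a second set of intensity values found equal to the first times 1 constant for each array. The design names build mm9, so no probe coordinates are given.

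Control spots and outlier spots were left out, log2 signals were reduced by the 75th percentile of the array (672 and 569 intensity units), and spots of a probe were averaged. RefSeq accessions named 27230 of 55674 probes. A gene was represented by its probe with the highest mean signal. The members, the gene lists and the alternatives were chosen with earlier results of these data known. Named beyond the members were, of each pathway list, the genes past 2-fold and the 3 with the highest signal, and of each cell type list its highest and lowest ratio and its defining markers near background. Exceptions given with a ratio or a bound are marked where they are named. Gdf9, Foxl2, Dcn and Col1a2 are named for their signal, and other genes only as not measured on both arrays or not matched. Of the spots, 65.4% and 61.6% were well above background and 0 were saturated. The errors are those of the software, and the number of arrays limits the precision. The calculation was tested on simulated data. Alternatives were other scalings (loess span 0.3), normexp, spot and probe summaries, filters and thresholds. Python 3.11.15, numpy 2.4.6, pandas 2.3.3, statsmodels 0.14.6, R 4.3.3 and limma 3.58.1 were used.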

Additional observations from a re-analysis of the deposited data

How the results depend on the processing

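No paired analysis was possible because the groups hold a single array each and nothing was tested. The median log2 ratio of the 8 genes, 0.34, was 0.58 on unscaled signals and 0.62 when scaled on spike-in controls. With these settings, in that order, the medians of the other lists were 0.18 and 0.21 for other Wnt antagonists, 0.40 and 0.44 for other Wnt targets, 0.36 and 0.39 for ligands, 0.21 and 0.24 for R-spondins and receptors, and 0.015 and 0.050 for intracellular components, whose median had the opposite sign in the reported scaling. These settings move all genes, since the median of all genes went from -0.10 to 0.15 and 0.18. The other antagonists had 0.37 with the mean of a gene's probes and 0.20 with only probes past the 75th percentile; the cause was not tested. The log2 of the lower bound of Dkk2 was 0.60, and 0.84 on unscaled signals, 0.88 when scaled on spike-in controls and 0.11 after normexp, whose offset exceeds the Dkk2 signal. The number of the 10 genes at least 2-fold higher, 2, became 1 with normexp, 0 with only probes past the 75th percentile, where Sfrp2 and Sfrp4 drop from the count, and 0 with a 4-fold threshold, and 3 when dim probes were kept and with a 1.5-fold threshold. For the pathway lists, the alternatives of these counts were chosen after seeing the data. The 2 R-spondin and receptor genes at least 2-fold higher became 1 when scaled on the median of all probes and after normexp and 0 at 4-fold, and the 0 lower became 1 with that median scaling, with quantile normalization and when dim probes were kept, and 3 at 1.5-fold. The 1 other antagonist higher became 0 after normexp, with only probes past the 75th percentile and at 4-fold. The 0 other targets higher became 1 on unscaled signals, on spike-in controls, with the authors' values, with quantile normalization, loess and scaling on probes well above background on both arrays, with the mean of a gene's probes, when dim probes were kept, with dim values at the floor and at 1.5-fold. The 0 ligand genes higher became 1 with the mean of a gene's probes, 1 when dim probes were kept and 2 at 1.5-fold, and the 0 lower became 2 when dim probes were kept. Over all 15258 genes, 612 were past 2-fold up and 88 down. Unscaled, these were 992 and 39, on spike-in controls 1054 and 35, at 4-fold 104 and 9, and at 1.5-fold 1413 and 653. Normexp gave 323 and 33 of 15253. They were 1349 and 554 of 20658 with dim probes kept, and 196 and 21 of 8762 for probes past the 75th percentile. The number lower was 58 with the authors' values and 139 with dim values at the floor. The log2 ratios of Sfrp1, Sfrp2, Sfrp4, Frzb, Dkk3 and Axin2 were above 0 and that of Sfrp5 below 0 under each alternative that gave a value. Of the cell type medians, those of theca cells and oviduct epithelium changed sign with the setting, that of granulosa cells was below 0 and the others above 0 in each. Their sizes moved, however: the adipocyte median of 2.20 was 1.38 after normexp, 0.59 with dim values at the floor and 0.53 when dim probes were kept, the macrophage median of 0.76 was 0.15 with only probes past the 75th percentile, and the granulosa median of -0.47 was -0.23 on unscaled signals and -0.19 on spike-in controls. On these 2 scalings the oocyte median of 0.17 was 0.41 and 0.45, and the stroma median of 0.38 was 0.62 and 0.65. Signal over background limits Sfrp5, Dkk2 and Wif1.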

Other observations

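Ccn4, a secreted matrix protein first known as a Wnt-induced gene, was measured by 2 probes, with log2 ratios of 0.97 and 1.07, so its place against the 2-fold line depends on the probe. Of the pathway genes with several probes well above background on both arrays, Tcf7 had the most discordant ones, with 0.25 for the representing probe and -1.10 for the other. For Cd44 the representing probe gave -0.05 and a dimmer one 0.79, and for Tnfrsf19 they gave 0.43 and -0.26. The lowest ratio among the R-spondins and receptors was that of Fzd9, at -0.98 with signals of 73.2 and 122 intensity units. The genes of this paragraph were picked after their values were seen.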
